A study of Homo sapiens with 6 samples.

Results

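Sum159 ITGB4 low cells recovered from mouse lungs that also held LM2 cells were compared with the same ITGB4 low clones grown in culture dishes. The comparison used 4 of the 6 libraries of the series, chosen by their titles and paired by clone. They were the libraries induced by LM2 of clones 1 and 3 (n = 2, here called LM2 lung) and the cultured controls of clones 1 and 3 (n = 2). SUM159 is a triple-negative human breast cancer line of basal, mesenchymal character, and LM2 was derived from another such line, MDA-MB-231, by selection for growth in the lung. Every library compared carries the ITGB4 low genotype label, which refers to the integrin beta-4 subunit. The LM2 lung cells entered the mouse through the tail vein, and the dissociated lung was kept overnight in a dish before tdTomato-positive cells were sorted the next day. The controls were extracted straight from culture, so the presence of LM2 cells, the stay in the lung, the dissociation, the overnight culture and the sort cannot be told apart. ITGB4 low cells from lungs with neither LM2 cells nor exposure to bleomycin were not analysed here. The treatment description names clone 1 alone for the joint injection with LM2 cells, so clone 3 rests on the library's title and the design text. Each group is 1 library per clone from 2 clones of 1 line, and the p-values below measure only the spread between these libraries, which may be technical. The remaining libraries, ITGB4 low clone 1 from mice whose lungs were exposed to bleomycin, a drug that injures the lung, and cultured ITGB4 high cells (n = 1 each), entered the filter and the scaling, and their levels are given where useful.

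Integrin beta-4 pairs with integrin alpha-6 to form the laminin receptor of hemidesmosomes, the plaques that tie basal epithelial cells through plectin and keratin filaments to laminin-332 in the basement membrane. Basal epithelial cells express keratins 5, 14 and 17 and the transcription factor p63, whereas mesenchymal carcinoma cells express the repressor ZEB1, fibronectin and contractile and matrix genes under TGF-beta and YAP. Breast cancer cells that move between these states can take up mixed epithelial and mesenchymal programs, and dormant cells in the lung have been linked to growth-restraining signals such as TGF-beta 2 and BMP ligands.

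Levels are given in CPM, read counts scaled to a common library total with TMM factors. Total counts of the 4 libraries ran from 13647997 to 22222121, mitochondrially encoded transcripts took 5.39% to 6.1% of them, and a count of 0 allows up to 3 counts, or 0.138 to 0.232 CPM, by counting error alone. The line's mesenchymal marker was high and its epithelial ones were nearly absent. VIM (vimentin) stood at 3330 and 3601 CPM in control clones 1 and 3 and at 2174 and 3051 in LM2 lung clones 1 and 3. The epithelial adhesion genes CDH1 (E-cadherin) and EPCAM did not exceed 0.192 CPM in any of the 4. The control pair differed with a biological coefficient of variation of 0.0805, and the LM2 lung pair with 0.307. Of the genes tested, 606 (3.87%) differed at least 2-fold between the controls and 2445 (15.6%) between the LM2 lung libraries. In bulk RNA, fewer cells expressing a gene and less RNA per cell cannot be told apart.

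Of 15673 genes tested, 5 rose in LM2 lung cells in edgeR's quasi-likelihood test with Benjamini-Hochberg adjustment over all of them (0.0319%), and 0 fell. They were the hemidesmosome integrin ITGB4, the keratin KRT75, the Ras and Rap effector RASIP1, the calcium-binding protein S100A2 of basal keratinocytes and SERPINA1, the inhibitor of neutrophil elastase. At an unadjusted p under 0.05, 1143 genes were higher and 1306 lower. DESeq2 called 295 lower genes and limma-voom 0.

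ITGB4 (ENSG00000132470, GRCh38 chromosome 17, 75721328 to 75757818, plus strand) stood at 25.9 and 24.6 CPM in control clones 1 and 3 and at 471 and 442 CPM in LM2 lung clones 1 and 3. Both lung libraries were far above both controls, and the groups did not overlap. The fitted rise was 18.1-fold (log2 fold change 4.17, SE 0.14, adjusted p = 0.0122). The cultured ITGB4 high library stood at 384 CPM.

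KRT75, a type II keratin of the hair follicle (chromosome 12, 52424070 to 52434525, minus strand), stood at 2.7 and 2.25 CPM in controls and at 273 and 244 CPM in LM2 lung cells. Control and lung libraries were again far apart, and the clones were close to each other. The fitted log2 fold change was 6.71 (SE 0.19, adjusted p = 0.00999), the smallest adjusted p of the 15673 genes. RASIP1, which links Ras and Rap GTPases to the cytoskeleton (chromosome 19, 48720587 to 48740721, minus strand), went from 0.346 and 0.230 CPM to 23.3 and 26.8 CPM. Both controls were near the counting floor, and both lung libraries were well above it (log2 fold change 6.45, SE 0.29, adjusted p = 0.0229).

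S100A2 (chromosome 1, 153561108 to 153567890, minus strand) stood at 0.970 and 1.29 CPM in controls and at 28.0 CPM in each LM2 lung library. The groups did not overlap (log2 fold change 4.6, SE 0.21, adjusted p = 0.0229). SERPINA1, also known as alpha-1 antitrypsin (chromosome 14, 94376747 to 94390693, minus strand), stood at 7.06 and 6.16 CPM in controls and at 143 and 102 CPM in LM2 lung cells. Its groups did not overlap either (log2 fold change 4.21, SE 0.24, adjusted p = 0.0494). With only the 4 libraries in the fit SERPINA1 missed the threshold (adjusted p = 0.0541), and in limma-voom RASIP1, S100A2 and SERPINA1 did (adjusted p = 0.0907 each). Without control clone 1 or control clone 3 none of the 5 passed (adjusted p = 0.429 to 0.566) and 0 genes were called in edgeR (801 and 573 genes at an unadjusted p under 0.05), whereas 1826 were called without LM2 lung clone 1 and 6303 without LM2 lung clone 3.

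**Figure D1:**
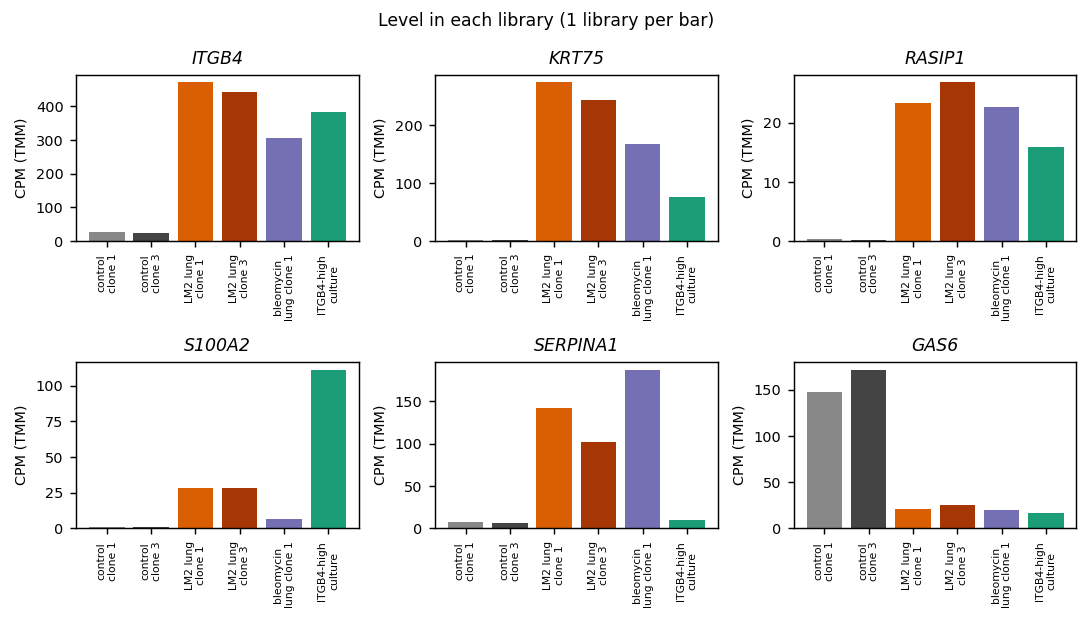
Level in CPM (TMM) of the 5 genes that rose in LM2 lung cells and of GAS6, 1 bar per library, with bars from 0. ITGB4 stands at 24.6 to 25.9 CPM in the controls and at 442 to 471 CPM in the LM2 lung libraries, and GAS6, which did not pass the test, at 147 to 172 CPM against 20.8 to 25.2 CPM.

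With the clone as a replicate block, 28 genes were higher (0.179%) and 8 lower (0.051%) at the same threshold, and all 36 differed at least 2-fold in the same direction in both clones. This fit leaves 1 residual degree of freedom. Over all tested genes the clone difference hardly correlated between LM2 lung and control (0.00115). The wide spread of the LM2 lung pair can hide a clone effect shared by some genes, so this value cannot show that such effects were absent. The adjusted p-values with the block are given as an alternative, not as a stronger test. Besides the 5 genes above, the higher ones held the basal keratins KRT5 (adjusted p with the block 0.0245), KRT14 (0.0392) and KRT17 (0.0338) and the interferon-induced genes XAF1 (0.0169) and OAS2 (0.0431). The lower ones held the AXL and MERTK ligand GAS6 (0.0245), the matrix proteins THBS1 and CCN2 (0.0336 each) and TGFB2 (0.0399). In edgeR with TMM factors and no block none of these passed, and 11 genes had an adjusted p between 0.05 and 0.06. With RLE factors in place of TMM, KRT5, KRT14, XAF1, GAS6, ARHGEF16, STAT5A, CCDC91, ABLIM1 and CRIP2 passed without the block (adjusted p = 0.0489 each). DESeq2, also without the block, called 30 of the 31 genes that edgeR called with the block and not without it. Below, where a gene passed with the block or without it, the test is edgeR with TMM factors.

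The question of which differences both clones shared was addressed gene by gene, with each LM2 lung library set against the control of its own clone. At least 2-fold higher in both clones were 389 genes (2.48% of those tested), and at least 2-fold lower in both were 601 (3.83%). This count has no test. The groups did not overlap for 382 of the higher and 595 of the lower genes. For genes picked by this limit, a lack of overlap therefore adds little, and the share over all tested genes is not given here. Clone 1 alone had 1407 higher and 1968 lower genes and clone 3 alone 885 and 893. Only 34 genes were 2-fold higher in clone 1 and 2-fold lower in clone 3, and 55 the reverse. Clone 1 had the larger ratio for 282 of the 389 higher and 456 of the 601 lower genes. The median gene sat at log2 ratios of -0.04 in clone 1 and -0.02 in clone 3. The higher genes included 317 protein-coding ones and the lower genes 471. A difference of at least 16-fold in both clones was found for 22 higher and 9 lower genes. Genes near the 2-fold limit were THBD at log2 ratios of 2.626 and 1.006 in clones 1 and 3, just inside, and MAPRE3 at 1.967 and 0.995, just outside. On the lower side ZNF248 was just inside at -1.226 and -1.002.

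**Figure D2:**
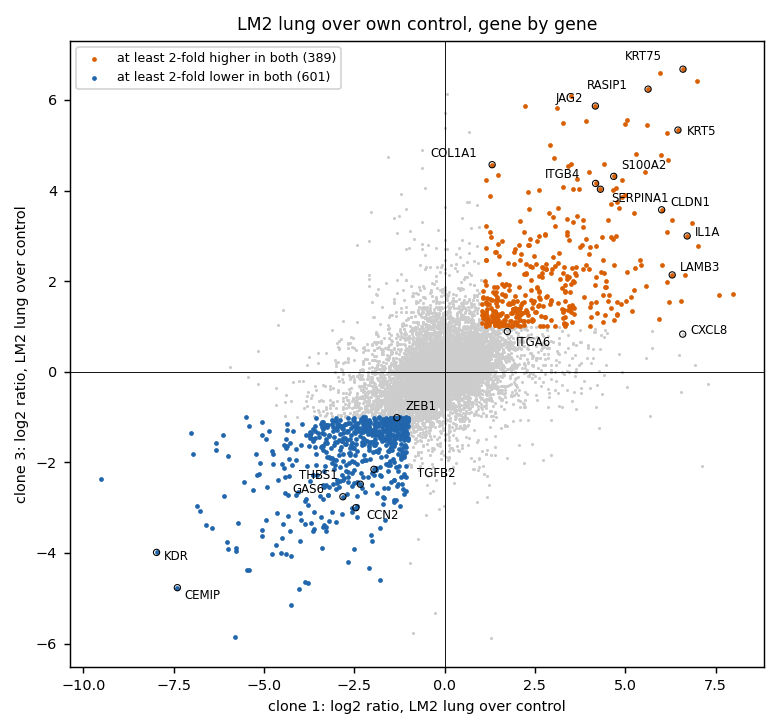
Log2 ratio of LM2 lung over the control of the same clone, clone 1 on the horizontal and clone 3 on the vertical axis, 1 point per tested gene. The 389 genes at least 2-fold higher in both clones are orange and the 601 at least 2-fold lower are blue, and KRT75 and ITGB4 lie near the diagonal while CXCL8 and LAMB3 lie toward clone 1.

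Of the 15 higher genes with the largest smaller ratio, 5 were keratins or ITGB4 itself: KRT75, KRT17, KRT14, KRT5 and ITGB4. The rest were RASIP1, S100A2, SERPINA1, the guanine nucleotide exchange factor ARHGEF16, the chemokine CX3CL1 (fractalkine), the urate transporter SLC2A9, the transcription factor STAT5A, the Notch ligand JAG2, the actin-binding protein ABLIM1 and CCDC91. STAT5A stood at 0.416 and 0.322 CPM in controls and at 11.3 and 10.7 CPM in LM2 lung cells, with no overlap (log2 fold change 4.89, adjusted p = 0.0505, with the block 0.0392). CX3CL1 was uneven, at 0.208 and 0.0919 CPM in controls and 21.1 and 5.94 CPM in lung clones 1 and 3 (6.51, adjusted p = 0.169, with the block 0.0336). SLC2A9 was at 1.39 and 1.38 CPM in controls and at 70.2 and 32.0 CPM in the lung (5.20, adjusted p = 0.0957, with the block 0.0317). ABLIM1 went from 5.47 and 5.38 CPM to 140.5 and 88.5 CPM (4.40, adjusted p = 0.0505, with the block 0.0169). ARHGEF16 (0.139 and 0.276 against 18.7 and 15.5 CPM) and CCDC91 (0.208 and 0.322 against 9.996 and 8.37 CPM) were even across clones (adjusted p = 0.0505 each, with the block 0.0336 and 0.0392). JAG2 stood at 1.39 and 0.919 CPM in controls and, higher in clone 3 than in clone 1, at 27.1 and 60.9 CPM in the lung (5.28, adjusted p = 0.106).

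The 15 lower genes chosen the same way were headed by CEMIP, a hyaluronan-degrading protein, which stood at 165 and 271 CPM in controls and at 0.852 and 9.84 CPM in LM2 lung clones 1 and 3. The VEGF receptor KDR stood at 70.8 and 105 CPM in controls and at 0.155 and 6.52 CPM in the lung. The GDNF co-receptor GFRA1 was at 52.3 and 84.0 CPM in controls and at 0.697 and 5.43 CPM in the lung. In each of these the groups were far apart, the lung level was lower in clone 1 than in clone 3, and the gene did not pass the test (adjusted p = 0.2, 0.247 and 0.2). The tetraspanin TSPAN18 (41.1 and 36.1 CPM against 0.620 and 2.30), the transcriptional corepressor RUNX1T1 (35.0 and 39.0 against 0.232 and 3.64) and the cytokine IL16 (22.0 and 21.6 against 0.542 and 1.79) had the same form. The others were ZC3H12B, TMEM98, OLFML3, TMEM130, the ferritin receptor SCARA5, RGCC, the growth factor binding protein IGFBP5, RANBP3L and PRUNE2. Across the 15, the smallest adjusted p was that of TMEM98, at 0.135.

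**Figure D3:**
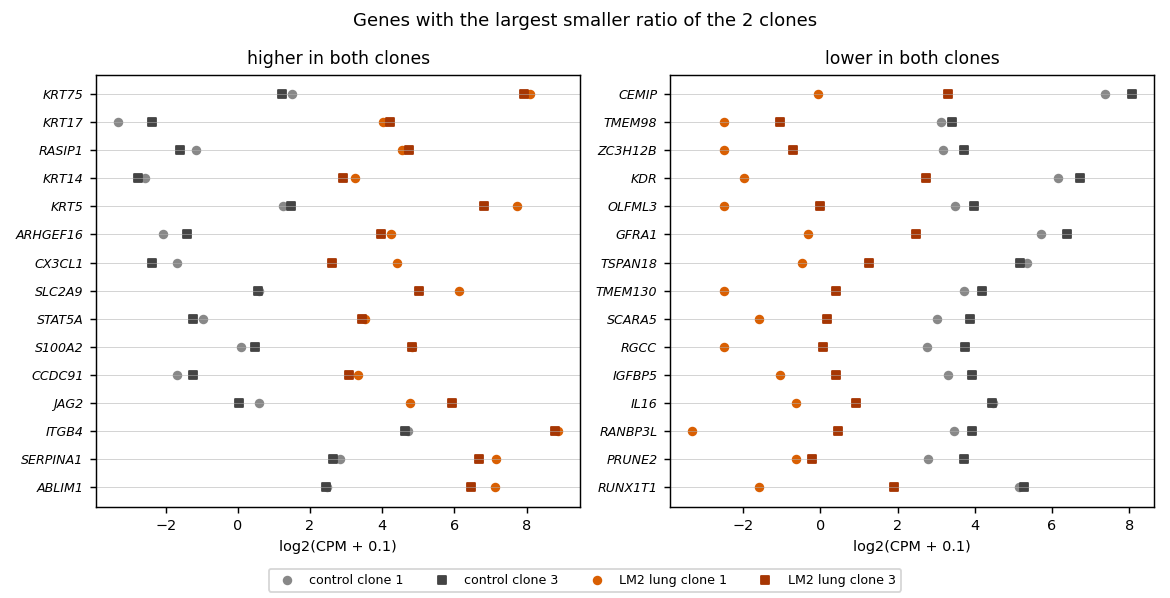
Log2(CPM + 0.1) of the 15 higher (left) and 15 lower (right) genes with the largest smaller ratio, 1 point per library. Grey points are controls and orange ones LM2 lung, circles clone 1 and squares clone 3, and the distance between grey and orange points is what ranked the genes.

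Among the 11 hemidesmosome and laminin-332 genes, all tested, 4 were at least 2-fold higher in both clones and 0 lower, against 2.48% and 3.83% of all genes. These shares are to be set beside the same counts of every list below. ITGB4 was the one that passed the main test. COL17A1, the transmembrane collagen of hemidesmosomes, stood at 0.139 and 0.0919 CPM in controls and at 9.92 and 2.37 CPM in LM2 lung clones 1 and 3, and passed in edgeR with the block (adjusted p = 0.0392) but not without it (0.183). LAMB3, the beta-3 chain of laminin-332, stood at 7.41 and 5.10 CPM in controls and at 592 and 22.9 CPM in the lung. LAMB3 was thus higher in both clones but many times more so in clone 1, and did not pass (adjusted p = 0.274). ITGA6, the alpha partner of ITGB4, was at 156 and 163 CPM in controls and 518 and 301 CPM in the lung (log2 fold change 1.36, adjusted p = 0.212). The median log2 ratio of the list was 1.08 in clone 1 and 0.89 in clone 3. Of 10 other integrin subunits tested, ITGA2, a collagen receptor subunit, was higher in both clones (72.4 CPM in each control, 870 and 191 CPM in the lung). The collagen receptor subunits ITGA1 and ITGA11 and the laminin receptor subunit ITGA7 were lower. ITGA11, for example, stood at 42.8 and 48.8 CPM against 5.66 and 11.2 CPM, and none of these passed.

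Of 16 keratins of basal and stratified epithelia and hair follicles, 10 passed the filter on low counts, and 6 of these were at least 2-fold higher in both clones and 1 lower. Keratins near 0 in the controls, such as KRT14 and KRT17, passed the filter only through libraries where they were higher. This can raise the share of tested members that are higher, here and in the other lists, so the 6 are also to be read against the 16 listed. KRT5 stood at 2.29 and 2.67 CPM in controls and at 212 and 113 CPM in the lung (log2 fold change 6.02, SE 0.42, adjusted p = 0.0505, with the block 0.0245). KRT14, its partner in basal cells, had 2 reads in the controls together and 238 in the lung libraries, a ratio of 151 with a 95% counting interval of 41.3 to 1253. KRT17 had 2 and 499 reads, a ratio of 316 (87.1 to 2619.5). All LM2 lung libraries were above all controls for these keratins, and in edgeR with TMM factors KRT14 and KRT17 passed with the block (adjusted p = 0.0392 and 0.0338) but not without it (0.0505 and 0.0585). KRT16 met the 2-fold limit with 0 reads in both controls but only 2 reads in LM2 lung clone 3. KRT4, a keratin of internal stratified epithelia and the 1 that was lower, had 37 and 111 reads in controls against 0 and 3. Keratins are close paralogs, and reads they share may have been split or dropped by the authors' counting. Of the simple-epithelial keratins, 4 of 6 were tested and KRT23 alone was 2-fold higher, at 0.895 CPM or less in every library.

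The promoters of KRT75 and KRT5 are shown because both keratins stood among the largest ratios and because the letters CACCTG, or CAGGTG on the other strand, are the E-box that ZEB1 and the SNAI repressors bind. They run from 250 bases before to 50 after the RefSeq start in GRCh38.p14, and the E-box is in capitals. KRT75 lies at chr12:52434322-52434621 on the minus strand and KRT5 at chr12:52520345-52520644 on the minus strand.
KRT75: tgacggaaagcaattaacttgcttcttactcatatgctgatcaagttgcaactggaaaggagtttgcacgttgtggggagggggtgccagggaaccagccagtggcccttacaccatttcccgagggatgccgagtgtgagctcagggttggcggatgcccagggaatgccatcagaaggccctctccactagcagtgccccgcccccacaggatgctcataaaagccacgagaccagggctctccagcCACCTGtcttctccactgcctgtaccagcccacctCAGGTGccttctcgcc
KRT5: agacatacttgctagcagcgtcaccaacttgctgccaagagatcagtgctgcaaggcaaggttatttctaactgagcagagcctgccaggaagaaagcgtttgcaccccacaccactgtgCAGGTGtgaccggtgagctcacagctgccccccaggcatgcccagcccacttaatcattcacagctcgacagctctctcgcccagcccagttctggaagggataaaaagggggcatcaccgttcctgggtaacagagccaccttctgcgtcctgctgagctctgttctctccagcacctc
The KRT75 window holds 2 matches, at 1 base before and 34 bases after the start, and the KRT5 window 1, at 130 bases before it. Such a match is in 20.6% of the 35116 promoter windows of the table and in 18.1% of the 15883 windows of tested genes. It is in 27.3% of the 385 windows of genes 2-fold higher in both clones and in 20.3% of the 591 of genes 2-fold lower. These shares describe letters, not binding.

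Of 29 desmosome, tight and adherens junction genes, 15 were tested, 5 were at least 2-fold higher in both clones and 0 lower. The tight junction gene CLDN1 stood at 5.96 and 5.42 CPM in controls and at 390 and 66.0 CPM in LM2 lung clones 1 and 3 (adjusted p = 0.184). Desmoplakin, DSP, which links desmosomes to keratin, was even across clones at 55.5 and 48.8 against 176 and 158 CPM (log2 fold change 1.68, SE 0.14, adjusted p = 0.0766). DSG3, the desmoglein of basal keratinocytes, had 1 read in the controls together and 231 in the lung libraries, a ratio of 293 (52.1 to 11619), and CDH3 (P-cadherin) 2 and 85 reads, a ratio of 53.9 (14.5 to 452). DSG3 passed with the block (adjusted p = 0.0429, without it 0.183). The epithelial cadherin itself did not join them: CDH1 was at 0.139 and 0 CPM in controls and at 0.155 and 0 CPM in the lung, under the floor throughout.

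Of 18 regulators of epithelial fate and splicing, 11 were tested and 4 were 2-fold higher in both clones, with 0 lower. TP63, which encodes the basal cell regulator p63, was at 35.8 and 50.4 CPM in controls and at 84.5 and 108 CPM in LM2 lung cells (log2 fold change 1.16, adjusted p = 0.202). GRHL3, a grainyhead factor of epidermal differentiation, went from 0.208 and 0.0919 to 2.56 and 1.15 CPM. The phospholipid synthesis enzyme CDS1 and the ETS factor EHF were the others, EHF with 1 read in the controls, 152 in LM2 lung clone 1 and 6 in clone 3. For all 4 both lung libraries were above both controls, as for nearly all genes at this limit, and none passed the test.

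Among transcription factors of the epithelial-mesenchymal transition, 8 of 9 were tested and ZEB1 alone was 2-fold lower in both clones. It met the limit narrowly in clone 3 (log2 ratio -1.01). By any size in both clones, 5 of the 8 were higher and 3 lower, against 30.5% and 35.6% of all genes. The medians of the list were 0.3 in clone 1 and 0.16 in clone 3. ZEB1 stood at 311 and 278 CPM in controls and at 124 and 138 CPM in LM2 lung cells. The groups did not overlap, and the fitted log2 fold change was -1.17 (SE 0.14, adjusted p = 0.135). SNAI2 was at 44.0 and 42.5 against 118 and 48.3 CPM. Of 44 mesenchymal and matrix genes, 40 were tested, 5 were 2-fold higher in both clones and 8 lower, and the median log2 ratio was -0.57 in clone 1 and -0.31 in clone 3. FN1 (fibronectin) stood at 9636 and 9699 CPM in controls and at 4670 and 5608 CPM in the lung (-0.91, adjusted p = 0.185). CDH2 (N-cadherin) stood at 248 and 217 CPM in controls and at 71.4 and 152 CPM in the lung (-1.06, adjusted p = 0.303). The gelatinase MMP2 stood at 301 and 398 CPM in controls and at 49.2 and 111 CPM in the lung (-2.12, adjusted p = 0.202). These 3 did not overlap between the groups.

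Of the 5 higher members of that list, COL1A1, COL1A2 and POSTN are also fibroblast markers. POSTN (periostin) went from 0.485 and 1.01 CPM to 78.9 and 7.67 CPM, and COL1A2 had 1 read in the controls together and 60 in the lung libraries, a ratio of 76.1 (13.1 to 3054). COL1A1, named after its values were seen, was at 36.3 and 29.8 CPM in controls and at 90.4 and 712 CPM in LM2 lung clones 1 and 3. Of the 10 fibroblast markers these 3 were 2-fold higher in both clones, and the list summed to 153 and 190 CPM in controls and to 659 and 856 CPM in the lung, with THY1 at 0 in both lung libraries. Their part in these results was not tested.

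Of 24 TGF-beta ligands, receptors and targets and YAP targets, all tested, 0 were 2-fold higher in both clones and 5 lower, with medians of -0.58 and -0.60. The matricellular YAP target CCN2 stood at 163 and 269.5 CPM in controls and at 29.7 and 33.6 CPM in LM2 lung cells. Both lung libraries were below both controls (log2 fold change -2.78, SE 0.29, adjusted p = 0.108, with the block 0.0336). TGFB2, a TGF-beta ligand, stood at 118 and 140 CPM against 30.4 and 31.5 CPM, also without overlap (-2.06, SE 0.15, adjusted p = 0.0585, with the block 0.0399). ANKRD1, a muscle ankyrin repeat protein and YAP target, went from 7.62 and 10.2 to 1.32 and 1.79 CPM, and CCN1 from 395 and 565 to 125 and 254 CPM, and neither passed in edgeR, with or without the block (DESeq2 adjusted p = 0.00134 and 0.0146). THBS1 (thrombospondin 1), counted with the matrix genes, stood at 1405 and 1784 CPM against 279 and 319 CPM (-2.42, SE 0.19, adjusted p = 0.0663, with the block 0.0336).

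The promoters of 4 of these genes are shown because all were at least 2-fold lower in both clones and because CATTCC, or GGAATG on the other strand, is the site of the TEAD factors through which YAP acts. The windows are built as above, with these letters in capitals. CCN2 lies at chr6:131951323-131951622 (minus strand), ANKRD1 at chr10:90921038-90921337 (minus), THBS1 at chr15:39580829-39581128 (plus) and TGFB2 at chr1:218345086-218345385 (plus).
CCN2: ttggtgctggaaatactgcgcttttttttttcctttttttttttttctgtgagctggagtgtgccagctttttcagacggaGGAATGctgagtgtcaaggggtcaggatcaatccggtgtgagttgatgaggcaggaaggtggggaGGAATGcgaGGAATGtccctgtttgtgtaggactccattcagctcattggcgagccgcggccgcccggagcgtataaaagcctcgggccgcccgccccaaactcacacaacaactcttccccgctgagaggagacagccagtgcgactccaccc
ANKRD1: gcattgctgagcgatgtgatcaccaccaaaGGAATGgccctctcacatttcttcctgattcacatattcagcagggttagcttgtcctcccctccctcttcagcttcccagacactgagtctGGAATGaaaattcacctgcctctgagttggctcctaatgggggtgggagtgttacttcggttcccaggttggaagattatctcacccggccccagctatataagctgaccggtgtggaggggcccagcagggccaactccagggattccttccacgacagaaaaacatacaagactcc
THBS1: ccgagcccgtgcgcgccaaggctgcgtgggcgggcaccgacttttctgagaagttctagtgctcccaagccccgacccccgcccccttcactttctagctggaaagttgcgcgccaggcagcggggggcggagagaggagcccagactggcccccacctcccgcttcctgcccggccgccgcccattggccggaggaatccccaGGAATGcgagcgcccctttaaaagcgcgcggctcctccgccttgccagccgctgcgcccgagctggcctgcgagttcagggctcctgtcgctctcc
TGFB2: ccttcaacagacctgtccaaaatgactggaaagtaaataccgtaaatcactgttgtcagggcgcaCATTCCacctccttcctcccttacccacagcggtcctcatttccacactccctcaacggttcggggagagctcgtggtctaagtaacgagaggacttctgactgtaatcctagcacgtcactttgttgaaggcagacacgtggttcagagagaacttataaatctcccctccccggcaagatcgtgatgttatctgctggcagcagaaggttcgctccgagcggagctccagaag
CCN2 holds 3 matches, at 169, 104 and 95 bases before the start, ANKRD1 2, at 220 and 128, THBS1 1, at 46, and TGFB2 1, at 185. These letters are in 14% of all windows of the table, in 11.6% of those of tested genes, and in 11.2% of those of genes 2-fold lower in both clones and 11.2% of those of genes 2-fold higher. Over the lower genes as a whole the match was therefore no more frequent than among all genes tested. For AP-1 (TGANTCA, both strands) the shares were 7.71% of all windows, 5.52% of those tested, 10.6% of the higher and 5.92% of the lower genes. STAT (TTCNNNGAA) and NF-kB sites were looked for as well. The STAT shares were 6.38% of tested, 8.31% of higher and 7.28% of lower genes, and the NF-kB shares 6.76%, 8.57% and 6.94%. None of these shares was tested.

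Among cell cycle inhibitors and dormancy-associated genes, 28 of 32 were tested, 5 were 2-fold lower in both clones and 0 higher. They were GAS6, IGFBP5, the BMP ligand BMP4, TGFB2 and the TGF-beta co-receptor TGFBR3. GAS6, the ligand of the receptor kinases AXL, MERTK and TYRO3, stood at 147 and 172 CPM in controls and at 20.8 and 25.2 CPM in LM2 lung cells. Both clones were close in each group (log2 fold change -2.79, SE 0.18), and its adjusted p of 0.0505, with the block 0.0245, was the smallest of any lower gene. BMP4 went from 20.2 and 27.8 CPM to 0.310 and 5.05 CPM (-3.13, adjusted p = 0.294). The median log2 ratios of the list were -0.31 and -0.37. Among Notch, ID and BMP genes, 23 of 30 were tested, with 4 higher and 2 lower. ID1 and ID3, inhibitors of helix-loop-helix factors and targets of BMP signalling, were higher: ID1 at 8.59 and 11.3 against 85.6 and 56.9 CPM, and ID3 at 8.03 and 10.9 against 63.6 and 53.2 CPM. ID3 passed with the block (adjusted p = 0.0478, without it 0.0766). The Notch target HES1 was at 9.35 and 18.9 against 46.3 and 45.6 CPM (adjusted p = 0.211).

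Of 34 NF-kB targets and inflammatory cytokines, 30 were tested. At least 2-fold higher in both clones were 9, 0 were lower, and 25 were higher by any size in both, against 30.5% of all genes. The median log2 ratio was 3.50 in clone 1 and 0.62 in clone 3. IL1A, an alarm cytokine, stood at 9.14 and 7.68 CPM in controls and at 971 and 62.2 CPM in LM2 lung clones 1 and 3 (adjusted p = 0.240). IL6 was at 2.01 and 2.80 against 68.5 and 8.57 CPM, and the neutrophil chemokine CXCL8 at 10.9 and 19.4 against 1058 and 34.5 CPM. In each the lung libraries were above the controls, but clone 3 stayed many times below clone 1, and none passed. The adhesion receptor VCAM1 (2.42 and 2.48 against 84.5 and 11.8 CPM) and the prostaglandin enzyme PTGS2 (0.762 and 1.24 against 38.4 and 6.90 CPM) had the same form. CCL5, a lymphocyte chemokine, was instead higher in clone 3, at 0.623 and 0.322 against 5.58 and 14.3 CPM (log2 fold change 4.43, adjusted p = 0.169).

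Of the EGF receptor family and its ligands, 12 of 13 were tested, with 4 higher and 1 lower. The receptor EGFR itself was at 741 and 627 CPM in controls and 993 and 751 CPM in LM2 lung cells (log2 fold change 0.35, adjusted p = 0.418). The ligand TGFA stood at 1.11 and 1.15 against 32.9 and 10.04 CPM (4.23, adjusted p = 0.175). AREG (amphiregulin) stood at 13.0 and 10.1 against 470.3 and 31.8 CPM, and EPGN (epigen) at 0.277 and 0.460 against 102 and 1.79 CPM, so these ligands again stood apart mainly in clone 1. Betacellulin, BTC, was lower, at 3.12 and 3.82 against 0.930 and 0.959 CPM.

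**Figure D4:**
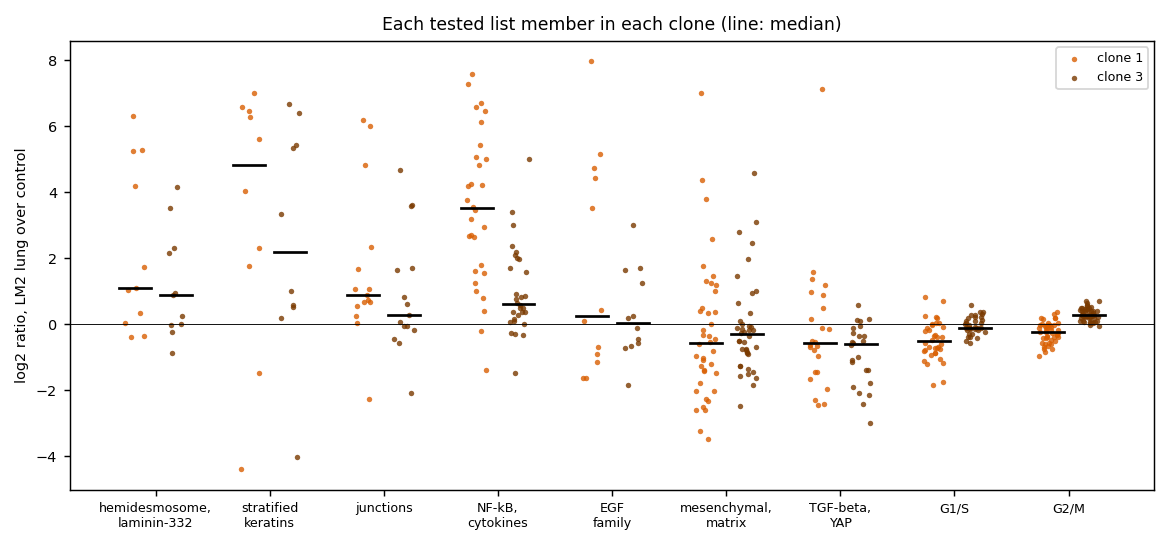
Log2 ratio of LM2 lung over the control of the same clone for every tested member of 9 gene lists, clone 1 orange and clone 3 brown, with the median as a black line. The NF-kB list has medians of 3.50 and 0.62 in clones 1 and 3, the hemidesmosome list 1.08 and 0.89, and the G2/M list -0.24 and 0.27.

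Of 42 type I interferon response genes, 39 were tested. At least 2-fold higher in both clones were 3 (7.69%) and lower 2 (5.13%), against 2.48% and 3.83% of all genes. The medians of the list were -0.17 and 0.19. XAF1, an interferon-induced pro-apoptotic gene, stood at 4.22 and 2.80 CPM in controls and at 57.1 and 47.8 CPM in the lung (log2 fold change 3.91, SE 0.27, adjusted p = 0.0505, with the block 0.0169). OAS2, an antiviral RNA sensor, stood at 2.49 and 1.84 against 19.3 and 22.1 CPM (3.26, SE 0.25, adjusted p = 0.0627, with the block 0.0431). The lung libraries were even and above the controls for both. RSAD2 (viperin) was lower, at 5.61 and 3.49 against 0.852 and 0.320 CPM, as was IFI6, and neither passed. Among interferon-gamma and antigen presentation genes, 25 of 33 were tested and 4 were higher, with 0 lower: the guanylate-binding proteins GBP4 and GBP5 and the chemokines CXCL10 and CXCL11, all at 6.74 CPM or less.

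Of 26 matrix metalloproteinases, plasminogen system genes and their inhibitors, 21 were tested, with 7 higher and 2 lower in both clones. SERPINA1 was the 1 that passed. SERPINF1 (pigment epithelium-derived factor), a secreted serpin, was at 1.32 and 0.689 CPM in controls and at 13.9 and 36.8 CPM in LM2 lung cells (adjusted p = 0.161). The membrane protease MMP14 went from 0.139 and 0.230 to 1.24 and 1.66 CPM. MMP24 had 147 reads in the controls together and 3 in the lung libraries, a ratio of control to lung of 38.6 (13 to 190).

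Cell cycle genes did not reach the limit. Of 36 G1/S and DNA replication genes and 46 G2/M and mitosis genes, all tested, 0 differed 2-fold in both clones. At the shares of 2.48% and 3.83% over all genes, lists of this size would hold few such genes. By any size in both clones, 17 G1/S genes were lower and 3 higher, with medians of -0.53 in clone 1 and -0.11 in clone 3. Over all tested genes, 35.6% were lower and 30.5% higher by any size in both clones. These shares are to be set beside each such count in this paragraph. Of the G2/M genes 8 were higher, 2 lower and 36 opposite in the clones. The proliferation marker MKI67 was at 716 and 853 CPM in controls and at 686 and 881 CPM in LM2 lung cells (adjusted p = 0.995). Of 22 ERK pathway genes 0 differed 2-fold in both. By any size in both clones, 13 of them were higher and 1 lower, with medians of 1.23 in clone 1 and 0.03 in clone 3. The 23 immediate early and dissociation-induced genes gave 0 higher and 2 lower, FOS and EGR2, with FOS at 21.1 and 62.2 against 7.67 and 20.8 CPM, values that do not overlap although LM2 lung clone 3 lay next to control clone 1. Of 30 p53 targets, 2 were higher and 2 lower (6.67% each, against 2.48% and 3.83% of all genes). GDF15, a stress-induced cytokine, stood at 5.33 and 2.94 against 33.2 and 24.3 CPM and passed with the block (adjusted p = 0.0392, without it 0.141). The other 3 were the mitochondrial regulator SPATA18 (higher) and TP53INP1 and PLK2 (lower). Of 34 unfolded protein and ATF4 response genes only VLDLR was 2-fold higher, but 26 were higher by any size in both clones, with medians of 0.75 and 0.29. Hypoxia genes gave 0 higher and 1 lower of 31, ADM. Cholesterol and fatty acid genes gave 0 higher and 2 lower of 32, TM7SF2 and INSIG1. The lower shares of these lists, 3.23% and 6.25%, compare with 3.83% of all genes. Mitochondrially encoded messenger RNAs gave 0 of 13.

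**Figure D5:**
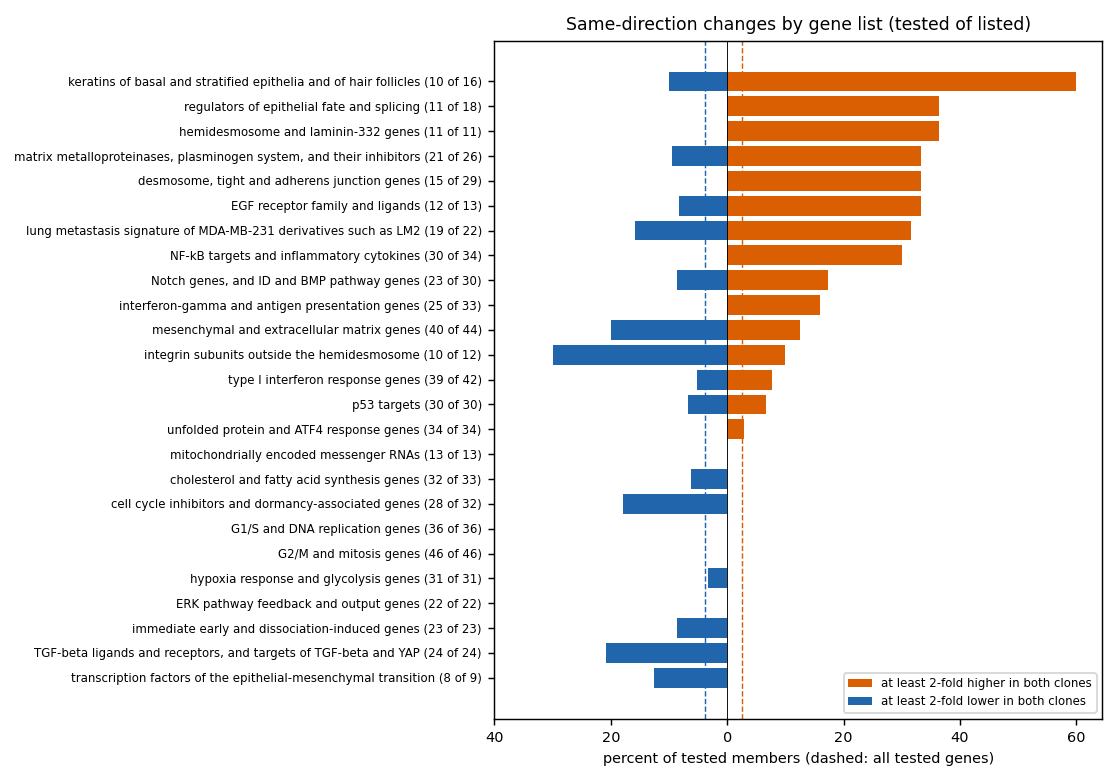
Percent of the tested members of each gene list at least 2-fold higher (orange, right) or lower (blue, left) in both clones, with tested and listed members in brackets. The dashed lines mark 2.48% and 3.83%, the shares of all tested genes, and stratified keratins reach 60% higher while the G1/S and G2/M lists have neither.

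Among markers of the other cells a dissociated lung could hold, the fibroblast list above was the only 1 whose summed level was higher in both lung libraries than in both controls, and COL1A1 carried this in clone 3. Without COL1A1 the list summed to 117 and 159.8 CPM in controls and to 569 and 144 CPM in LM2 lung clones 1 and 3. The 19 macrophage markers summed to 10.9 and 10.4 CPM in controls and to 8.06 and 7.61 CPM in LM2 lung clones 1 and 3, with C1QA, C1QB, C1QC, AIF1 and TYROBP at 0 in both lung libraries. The 14 lymphocyte markers summed to at most 2.48 CPM in the lung, with CD3D, CD3E and MS4A1 among the 10 at 0, and the 7 red cell markers to at most 0.0639 CPM. Endothelial markers summed to 84.4 and 122 CPM in controls and to 14.6 and 27.4 CPM in the lung, with CDH5, TEK, TIE1 and CLDN5 at 0. KDR alone made this difference: without it the list summed to 13.6 and 17.0 CPM in controls and to 14.5 and 20.8 CPM in the lung. Alveolar and airway markers summed to 321 and 373 against 334 and 325 CPM, with SFTPC, SFTPA1, SFTPD and SCGB1A1 at 0 in both lung libraries. The lung's own cells are mouse cells, whereas these markers are human genes and the build named by the submitters is the human hg38. Zeros and low sums therefore cannot show that mouse lung cells were absent, and mouse reads among the counts were not looked for. LM2 cells carry a lung metastasis signature, and the sort on tdTomato would remove LM2 and lung cells that lack this label; whether the LM2 cells carried it is not given in the sources used here. Of its 22 genes 19 were tested, 6 were higher and 3 lower in both clones, and the signature summed to 1292 and 1559 CPM in controls and to 3410 and 1514 CPM in LM2 lung clones 1 and 3. Without EREG, an EGF family ligand, it summed to 1201 and 1469 CPM against 1449 and 1300.4 CPM. MMP1 of that signature was at 11.8 CPM in LM2 lung clone 1 and at 0 reads in clone 3. The part of LM2 cells in the results was not tested.

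In clone 1 the median log2 ratio stood at 0.38 over chromosome 11, 0.29 over chromosome 4 and 0.20 over chromosome 13, and between -0.13 and 0.12 over the others; in clone 3 all lay between -0.12 and 0.06. The genes above that lie on chromosome 4 include CXCL8, CXCL10, CXCL11, AREG, EPGN, BTC, SLC2A9, KDR, CDS1 and SPATA18. Those on chromosome 11 include TSPAN18, EHF, ADM and TM7SF2, and those on chromosome 13 include GAS6, POSTN and RGCC. With each chromosome's median subtracted, an alternative chosen after seeing the data, the counts were 401 higher and 579 lower.

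The bleomycin lung library and the ITGB4 high library share the controls with this comparison, so their levels are given side by side. ITGB4 stood at 306 CPM in bleomycin lung cells and at 384 CPM in ITGB4 high cells, next to 442 to 471 CPM in LM2 lung cells. KRT75 was at 167 and 75.6 CPM, RASIP1 at 22.6 and 15.98 CPM, S100A2 at 6.35 and 111 CPM, and SERPINA1 at 187 and 10.2 CPM in bleomycin lung and ITGB4 high cells. Of the basal keratins, KRT5 was at 12.3 and 3.28 CPM, KRT14 at 1.35 and 1.46 CPM and KRT17 at 5.26 and 2.77 CPM in bleomycin lung and ITGB4 high cells. All of these lie above the controls and below the LM2 lung libraries. STAT5A was at 8.97 and 0.511 CPM and XAF1 at 90.3 and 0.292 CPM. Among the lower genes, GAS6 was at 20.5 and 16.8 CPM and TGFB2 at 39.3 and 3.50 CPM, and CCN2 at 15.8 and 13.0 CPM. With 1 library each, differences of these from LM2 lung cells have no test here.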

How the data were processed

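Per the labels' protocols, libraries were made from poly(A) RNA with a strand-marking KAPA kit, and the submitters' processing notes name STAR 2.7.1a and the build hg38. The authors deposited unnormalized read counts for 58336 genes, of which 58216 matched GENCODE 29 and 120 did not. Which program counted the reads, on which annotation and with which strand setting, is not given in the sources used here, so reads of overlapping antisense genes may not have been separated.

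Levels in CPM use TMM factors. Genes were tested with the robust quasi-likelihood method of edgeR 4.0.16 in R 4.3.3 over the 4 groups of all 6 libraries, after filterByExpr at a minimum count of 10, with Benjamini-Hochberg adjustment over 15673 genes, a threshold of 0.05 and 2 residual degrees of freedom; it is two-sided. The script was tested on simulated data. The SE given is the absolute log2 fold change divided by the square root of the test's F statistic. Within-clone ratios used log2 CPM with a prior count of 2. Counting intervals are exact 95% intervals and, like floors, cover counting error only, since reads carry no molecular identifiers.

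Titles give the same clone to same-numbered libraries, and this pairs them. The deviations of clone 1 from clone 3 correlated at 0.00115 between LM2 lung and control. Libraries of a pair differed by more than sampling noise (chi-square per degree of freedom 8.67 for controls, 80.1 for LM2 lung).

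The genes named were those past the threshold, the 15 higher and 15 lower protein-coding genes with the largest smaller ratio of the clones and a mean log2 CPM of at least 3 in the higher group, up to 4 members of each of 31 lists at least 2-fold different in both clones, and 16 genes named in any case, such as ITGB4, ZEB1, CDH1 and MKI67. Genes named for passing with the block, or to illustrate a list, were chosen after their values were seen. Some members of the lists are not reported here. The comparison, the lists and the rule were chosen with earlier results of these data known. Alternatives were RLE factors, no filter, DESeq2 1.42.0, limma-voom (limma 3.58.1), the clone block, the 4 libraries alone, each library left out, other fold limits and prior counts, and chromosome medians subtracted. Promoters are from RefSeq, GRCh38.p14; 6 genes are shown, and ITGB4, KRT14, KRT17 and CCN1 had no entry in the table used.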

Additional observations from a re-analysis of the deposited data

Results flagged for a closer look

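Lists of at least 5 tested members were flagged where the median log2 ratio of LM2 lung over control had opposite signs in the 2 clones. In each clone its size had to be at least 0.2, which left out other lists of opposite sign, such as the type I interferon genes. Of the gene lists, 4 were flagged. The median was 0.46 in clone 1 and -0.25 in clone 3 for the immediate early and dissociation-induced genes. It was 1.15 and -0.71 for the matrix metalloproteinases, plasminogen system and their inhibitors, of which MMP1 stood at log2 ratios of 6.54 and -0.44. It was -0.24 and 0.27 for the G2/M and mitosis genes, and 0.35 and -0.42 for the 5 tested endothelial cell markers. The difference between the clones was not tested, since 1 library per clone and group leaves no residual degree of freedom for it.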

How the results depend on the processing

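The count of 5 called genes was 14 with RLE factors (13 higher, 1 lower), 1748 with no filter (845 and 903), 647 with DESeq2 (352 and 295), 2 with limma-voom, 4 with only the 4 libraries, and, under a replicate block for the clone, 36 (28 and 8). Leaving out a library gave 0 to 6303: 1826 without LM2 lung clone 1, 6303 without LM2 lung clone 3 and 0 without either control. The common biological coefficient of variation was 0.244 in the main design, 0.0846 and 0.0812 without LM2 lung clones 1 and 3, and 0.335 without either control. The block lost none of the 5 calls and changed no call of a named gene other than those given with their value under it, and with RLE factors, DESeq2 and no filter each of the 5 passed.

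The 389 higher and 601 lower genes became 853 and 1287 at a 1.5-fold limit and 135 and 131 at a 4-fold limit. Over prior counts of 0.5 and 5 they ran from 473 to 293 and from 658 to 501. Every LM2 lung library against every control, with no replicate block, gave 306 and 441. No filter gave 464 and 855, and RLE factors 389 and 592. With 1 clone alone they were 885 to 1407 higher and 893 to 1968 lower. MKI67, at a log2 fold change of 0.00 in the main design, changed sign to 0.01 with RLE factors, DESeq2 and the 4 libraries, and to 0.12 without control clone 3, and it ran from -0.18 without LM2 lung clone 3 to 0.17 without LM2 lung clone 1. The causes were not tested.

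Each group has 2 libraries, so the spread rests on 2 residual degrees of freedom in the main fit and on 1 with the block. Genes with 3 counts or fewer in both libraries of a clone numbered 14 of the higher and 6 of the lower genes, where a ratio depends on the prior count.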

Other observations

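Several genes outside the lists passed in edgeR with the clone as a replicate block but not without it, and were named after their values were seen. DESeq2, which had no block, called those below as well, except HTATIP2 (adjusted p = 0.141). MIR205HG, the host gene of a microRNA of basal epithelial cells, had 1 read in the controls together and 347 in the LM2 lung libraries, a ratio of 440 with a counting interval of 78.5 to 17428 (edgeR adjusted p = 0.0663, with the block 0.0399). The phospholipase PLCH2 had 2 and 173 reads, a ratio of 109.7 (29.9 to 913; 0.0663, with the block 0.0336). CDCP1, a transmembrane substrate of Src kinases, stood at 24.6 and 18.8 CPM in control clones 1 and 3 and at 221 and 116 CPM in LM2 lung clones 1 and 3 (0.141, with the block 0.0336). The sorting receptor SORCS2 stood at 0.693 and 0.368 against 13.0 and 10.4 CPM (0.0923, with the block 0.0403). In each the lung libraries were above both controls. The LIM protein CRIP2 (1.32 and 0.873 against 18.1 and 19.05 CPM), ITGBL1 (1.73 and 1.10 against 15.3 and 11.3 CPM) and the prostaglandin reductase PTGR1 (0 and 0.184 against 4.11 and 14.5 CPM) also passed in edgeR with the block (0.0392, 0.0479 and 0.0399) and not without it (0.0507, 0.115 and 0.183).

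On the lower side, the angiopoietin ANGPT1 stood at 47.1 and 72.0 CPM in controls and at 4.88 and 10.9 CPM in LM2 lung cells (adjusted p = 0.173, with the block 0.0392). ADD3, an adducin of the spectrin skeleton, stood at 35.6 and 48.6 against 6.12 and 8.69 CPM (0.127, with the block 0.0399), and TM4SF1, a surface protein of the tetraspanin-like family, at 112 and 164 against 30.1 and 37.5 CPM (0.138, with the block 0.0399). C1orf198 stood at 168 and 254 against 34.1 and 64.9 CPM (0.184, with the block 0.0392). HTATIP2 passed with the block (0.0336, without it 0.299) although its lung level was 0.465 CPM in clone 1 and 23.5 CPM in clone 3, against 0 and 0.276 CPM in the controls.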
